A study of Mus musculus with 6 samples.

Results

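The genes of the circadian clock were read in the livers of male mice that lack the insulin receptor in hepatocytes (LIRKO) and of littermate Flox controls. They are *Arntl*, *Clock*, *Per1*, *Per2*, *Cry1*, *Cry2*, *Dbp*, *Tef*, *Nr1d1* and *Nfil3*. Every probe set that the platform annotation gives to 1 of these symbols alone was kept, which gave 13 probe sets for all 10 genes, of 12422 probe sets in all. LIRKO mice are IR flox/flox albumin:CRE + and Flox mice are IR flox/flox albumin:CRE -, so that both carry the floxed insulin receptor alleles and only LIRKO mice carry Cre. The albumin promoter drives Cre mainly in hepatocytes, and the liver RNA also comes from other cells. Mice of both groups, on a mixed genetic background, were 2 to 3 months old, had free access to chow and were not fasted. The methods place killing in the afternoon, in the light phase, unless otherwise indicated. With no series of times, a shift in phase and a change in level of a cycling transcript cannot be told apart. There were 3 LIRKO and 3 Flox arrays (Affymetrix mouse arrays of short oligonucleotides), each of which held RNA pooled from more than 1 mouse, so that the spread given here is one between pools. All values are log2 levels that the authors obtained by robust multichip averaging (RMA), and precision is limited by the number of arrays.

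In the mammalian clock, the proteins of *Arntl* (BMAL1) and *Clock* pair and switch on genes that carry an E-box, among them *Per1*, *Per2*, *Cry1*, *Cry2*, *Dbp* and *Nr1d1*. The PER and CRY proteins then block this pair and so close the loop. REV-ERB alpha, made from *Nr1d1*, represses *Arntl* and *Nfil3* through ROR elements, and DBP and TEF activate through D-boxes, which NFIL3 represses. In mouse liver the transcripts of *Arntl* and *Dbp* cycle in opposite phase, and the time of feeding is a strong cue for the liver clock.

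Stretches of promoter are shown for the 7 of the 10 genes whose RefSeq window (GRCm38.p6) held a clock motif, since these are the elements through which clock proteins act on one another's genes. The windows run from 250 bases before to 50 bases after a gene's start, 9 of the 10 genes matched with 14 windows, and *Per2* had none. The letters searched on both strands were CACGTG (E-box), CACGTT (an E-box variant), TTATGTAA or TTACGTAA (D-box) and TAGGTCA or TGGGTCA (core of the ROR element). Motifs are in capitals, and on a strand read in reverse CACGTT appears as AACGTG and TAGGTCA as TGACCTA.
Per1, chr11:69098756-69098815, + strand, E-box: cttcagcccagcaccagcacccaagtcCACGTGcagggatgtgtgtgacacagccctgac
Cry1, chr10:85185082-85185160, - strand, E-box variant and E-box: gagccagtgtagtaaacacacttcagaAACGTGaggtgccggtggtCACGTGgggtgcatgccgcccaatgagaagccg
Cry2, chr2:92434203-92434262, - strand, E-box variant: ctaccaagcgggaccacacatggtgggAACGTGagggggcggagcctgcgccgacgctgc
Nr1d1, chr11:98775373-98775432, - strand, E-box variant: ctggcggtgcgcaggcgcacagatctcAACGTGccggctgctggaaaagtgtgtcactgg
Tef, chr15:81802519-81802578, + strand, E-box: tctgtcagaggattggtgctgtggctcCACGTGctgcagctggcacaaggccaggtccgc
Nfil3, chr13:52981018-52981078, - strand, ROR element core: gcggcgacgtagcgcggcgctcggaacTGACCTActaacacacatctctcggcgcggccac
Arntl, chr7:113207514-113207560, + strand, ROR element core: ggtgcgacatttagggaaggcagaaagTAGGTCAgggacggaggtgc
The E-box lay in windows of 3 of the genes (4 of the 14 windows, against 7.15% of all 32851 promoter windows) and the variant in those of 3 genes (3 windows, against 4.68%). The ROR element core lay in 2 windows, against 6.45% of all, and the D-box in none, against 1.06%. In the *Cry1* window the variant and the E-box began 79 and 60 bases before the start, and in the *Arntl* window the ROR element core began 30 bases after it. *Tef* has a second window with an E-box. The windows of *Clock* and *Dbp* held none of these letters, which says nothing of sites elsewhere.

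LIRKO 2 and LIRKO 3 stood apart from the other 4 arrays. When probe sets were put into 10 equal groups by their Flox level, the median difference from Flox went from 0.23 (LIRKO 2) and 0.15 (LIRKO 3) in the dimmest group to -1.09 and -0.89 in the brightest, and on LIRKO 1 it stayed between -0.03 and 0.00. Values of the clock genes are therefore also given for LIRKO 1 alone, and with the median shift of the same signal level taken off each array. The liver label was borne out by *Alb* (albumin), at 14.00 to 14.17 on the LIRKO arrays and 14.18 to 14.25 on the Flox arrays. Probe set 102146_at of *Insr*, the targeted gene, read 5.37, 5.99 and 6.06 on LIRKO 1 to LIRKO 3 and 5.45, 5.22 and 5.38 on Flox 1 to Flox 3. The sources used here do not place it inside or outside the deleted exon, so that it cannot check the labels.

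No clock gene passed the test between LIRKO and Flox livers. Of the 13 probe sets, 0 were higher and 0 were lower at an adjusted p under 0.05 from limma, where 0.0725% of all probe sets were called higher and 0.0564% were called lower. At an unadjusted p under 0.05, limma had 3 of the 13 (those of *Clock*, *Per2* and *Nfil3*), against 20.9% of all. LIRKO arrays lay above all Flox arrays for 1 of the 13, against 9.84% of all probe sets, and below all of them for 1, against 14.9% of all. These shares are near those of all probe sets. The median log2 difference of LIRKO from Flox was -0.08 over the 13 probe sets and 0.01 over all.

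**Figure D1:**
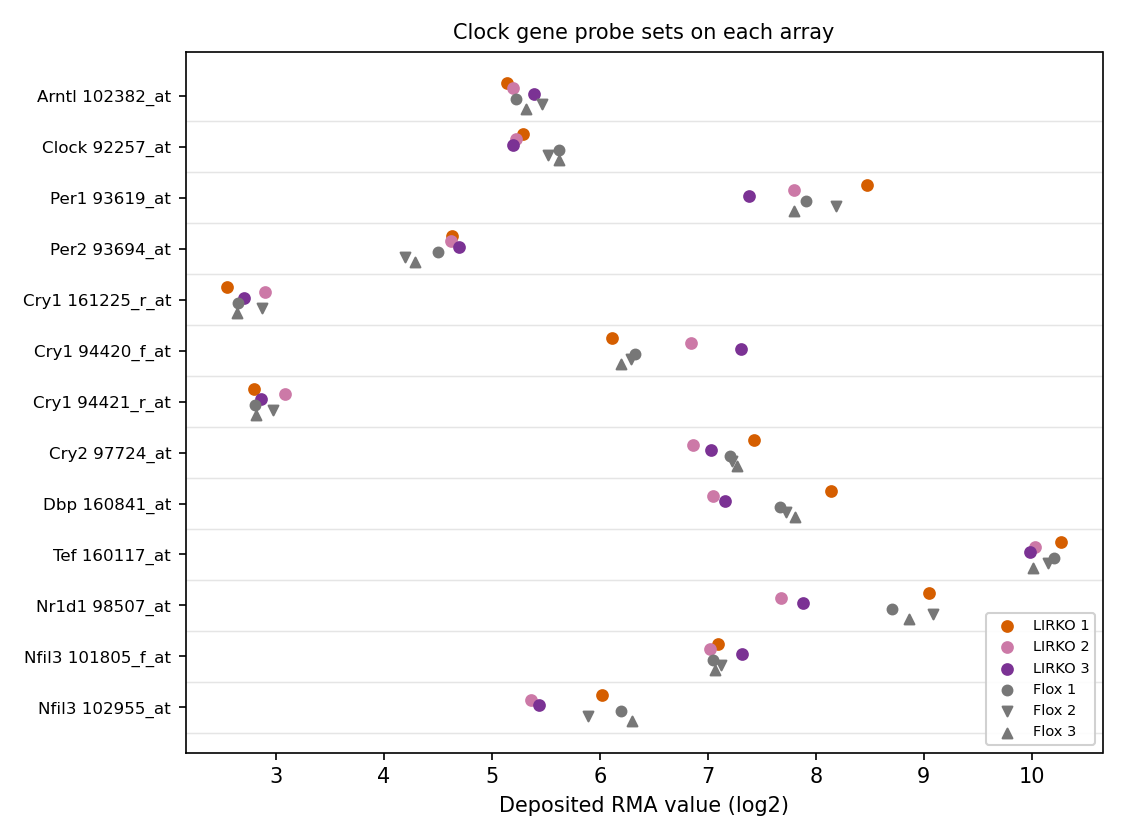
Deposited RMA value (log2, horizontal axis) of each clock gene probe set (rows) on the 6 arrays; coloured points are LIRKO arrays and grey symbols are Flox arrays. LIRKO and Flox lie apart for *Clock* (5.20 to 5.29 in LIRKO, 5.52 to 5.62 in Flox) and *Per2* (4.62 to 4.69 in LIRKO, 4.19 to 4.50 in Flox), and LIRKO 1 lies away from LIRKO 2 and LIRKO 3 for *Dbp* and *Nr1d1*.

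In the activating arm of the loop, *Clock* read lower on each LIRKO array than on any Flox array. Its probe set 92257_at read 5.29, 5.22 and 5.20 on LIRKO 1 to LIRKO 3, against 5.62, 5.52 and 5.62 on Flox 1 to Flox 3. The groups did not overlap, and the 3 LIRKO pools lay close together. The log2 difference was -0.35 (standard error 0.11, 95% interval -0.60 to -0.09), which did not pass over all probe sets (adjusted p = 0.237 from limma). On LIRKO 1 alone *Clock* was -0.30 from the Flox mean, and with the shift of the same level taken off it was -0.28, -0.52 and -0.48 on LIRKO 1, LIRKO 2 and LIRKO 3. *Clock* thus lay below Flox on all 3 arrays by either reading. *Arntl*, its partner in the pair, read 5.14, 5.20 and 5.39 on the LIRKO arrays and 5.22, 5.46 and 5.32 on the Flox arrays. The 2 groups overlapped, and the log2 difference was -0.09 (95% interval -0.40 to 0.22, adjusted p = 0.661 from limma). That interval does not show that the *Arntl* level was alike in the 2 groups. With the shift of the same level taken off, *Arntl* was -0.17, -0.32 and -0.06 from the Flox mean on LIRKO 1 to LIRKO 3.

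Among the *Per* genes, which encode repressors of the loop, *Per2* was the one with LIRKO arrays apart from Flox. It read 4.63, 4.62 and 4.69 on the LIRKO arrays, against 4.50, 4.19 and 4.28 on the Flox arrays, a log2 difference of 0.32 (standard error 0.12, 95% interval 0.03 to 0.62, adjusted p = 0.237 from limma). The LIRKO values of *Per2* were the tighter ones, with an SD of 0.0387 in LIRKO and 0.156 in Flox. The *Per2* signal lay at percentile 13.1 of all probe sets on Flox, in the second dimmest group, where LIRKO 2 and LIRKO 3 ran 0.24 and 0.15 above Flox. With that shift taken off, *Per2* was 0.32, 0.06 and 0.22 above the Flox mean on LIRKO 1 to LIRKO 3. The sign held on each of them, with little left on LIRKO 2. *Per1* had LIRKO arrays on both sides of Flox, at 8.47, 7.80 and 7.38 in LIRKO and 7.91, 8.18 and 7.79 in Flox. LIRKO 1 was the highest of the 6 arrays for *Per1* and LIRKO 3 the lowest, and the log2 difference was -0.08 (95% interval -0.74 to 0.58, adjusted p = 0.867 from limma). With the shift of the same level taken off, *Per1* was 0.52, 0.09 and -0.42 from the Flox mean on LIRKO 1 to LIRKO 3. The sign of its mean difference turned to 0.06 after cyclic loess between arrays and to 0.03 after renewed quantile normalization, so that no direction can be given for *Per1*.

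The *Cry* genes encode the other repressors. *Cry1* has 3 probe sets, of which 161225_r_at and 94421_r_at read 2.55 to 2.90 and 2.79 to 3.08 in LIRKO and 2.64 to 2.87 and 2.80 to 2.97 in Flox. These lie within the dimmest 1% of probe sets on Flox (percentiles 0.185 and 0.684), and the suffix _r marks probe sets built outside the array's usual design rules. The third, 94420_f_at, marked as shared within a sequence family, read 6.11, 6.84 and 7.31 on LIRKO 1 to LIRKO 3 and 6.32, 6.29 and 6.20 on Flox 1 to Flox 3. LIRKO 1 was below all Flox arrays here and the other two were above them, and the log2 difference was 0.49 (95% interval -0.20 to 1.17, adjusted p = 0.318 from limma). With the same-level shift taken off, 94420_f_at was -0.15, 0.47 and 0.97 from the Flox mean on the same arrays, and the dim *Cry1* probe sets lay between -0.16 and -0.01. The probe sets of *Cry1* therefore gave no common reading. *Cry2* read 7.43, 6.86 and 7.02 on the LIRKO arrays and 7.20, 7.22 and 7.27 on the Flox arrays. LIRKO 1 was above all Flox arrays for *Cry2*, and LIRKO 2 and LIRKO 3 were below them. The log2 difference of *Cry2* was -0.13 (95% interval -0.52 to 0.27, adjusted p = 0.637 from limma), and with the same-level shift taken off it was 0.20, -0.30 and -0.15 on LIRKO 1 to LIRKO 3.

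*Dbp* and *Nr1d1*, which the BMAL1 and CLOCK pair switches on, read far higher on LIRKO 1 than on LIRKO 2 and LIRKO 3. *Dbp*, which encodes an activator of D-box genes, read 8.14, 7.05 and 7.16 on LIRKO 1 to LIRKO 3 and 7.66, 7.72 and 7.80 on Flox 1 to Flox 3. LIRKO 1 lay above all Flox arrays and LIRKO 2 and LIRKO 3 below all of them. The mean was 7.45 ± 0.602 in LIRKO and 7.73 ± 0.0697 in Flox (SD, n = 3 each), a log2 difference of -0.28 (95% interval -0.96 to 0.40, adjusted p = 0.540 from limma). *Nr1d1*, the gene of REV-ERB alpha, read 9.05, 7.68 and 7.88 on the LIRKO arrays and 8.70, 9.08 and 8.86 on the Flox arrays. For this gene LIRKO 1 fell inside the Flox range. The mean was 8.20 ± 0.738 in LIRKO and 8.88 ± 0.191 in Flox (SD, n = 3 each), and the log2 difference was -0.68 (95% interval -1.51 to 0.16, adjusted p = 0.276 from limma). Probe sets of the same level as *Nr1d1* shifted by -0.47 on LIRKO 2 and -0.38 on LIRKO 3, and with this taken off *Nr1d1* was 0.18, -0.73 and -0.62 from Flox on LIRKO 1 to LIRKO 3. *Dbp* was then 0.42, -0.43 and -0.41, so that for both genes LIRKO 1 was still above the Flox mean and LIRKO 2 and LIRKO 3 below it. The promoter window of *Nr1d1* holds the E-box variant 28 bases before the start, whereas the *Dbp* window held none of the motifs searched. A link between motifs and these levels was not tested.

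*Tef*, an activator of the same family as *Dbp*, read 10.27, 10.03 and 9.99 in LIRKO and 10.21, 10.15 and 10.01 in Flox. The groups overlapped, with a log2 difference of -0.03 (95% interval -0.34 to 0.28, adjusted p = 0.897 from limma). *Tef* lies in the brightest group of probe sets, at percentile 95.1 on Flox, which ran 1.09 and 0.89 below Flox on LIRKO 2 and LIRKO 3. Against other probe sets of its level *Tef* was therefore 0.99 and 0.76 above Flox on those arrays and 0.16 above on LIRKO 1. Its log2 difference turned to 0.57 after cyclic loess and to 0.49 after renewed quantile normalization (adjusted p = 0.212 and 0.226 from limma), so that the sign of *Tef* rests on the scaling. *Nfil3*, the repressor at D-boxes, was read by 2 probe sets that differ. On 102955_at it read 6.02, 5.36 and 5.43 in LIRKO and 6.20, 5.89 and 6.30 in Flox, with LIRKO 1 inside the Flox range and the others below it. The log2 difference was -0.52 (95% interval -1.03 to -0.02, adjusted p = 0.238 from limma), and with the same-level shift taken off this probe set was -0.10, -0.87 and -0.77 from the Flox mean on LIRKO 1 to LIRKO 3. On 101805_f_at, shared within a sequence family, *Nfil3* read 7.09, 7.02 and 7.32 in LIRKO and 7.05, 7.13 and 7.07 in Flox, with a log2 difference of 0.06 (adjusted p = 0.770 from limma) and values of 0.02, -0.09 and 0.22 once the shift was taken off.

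**Figure D2:**
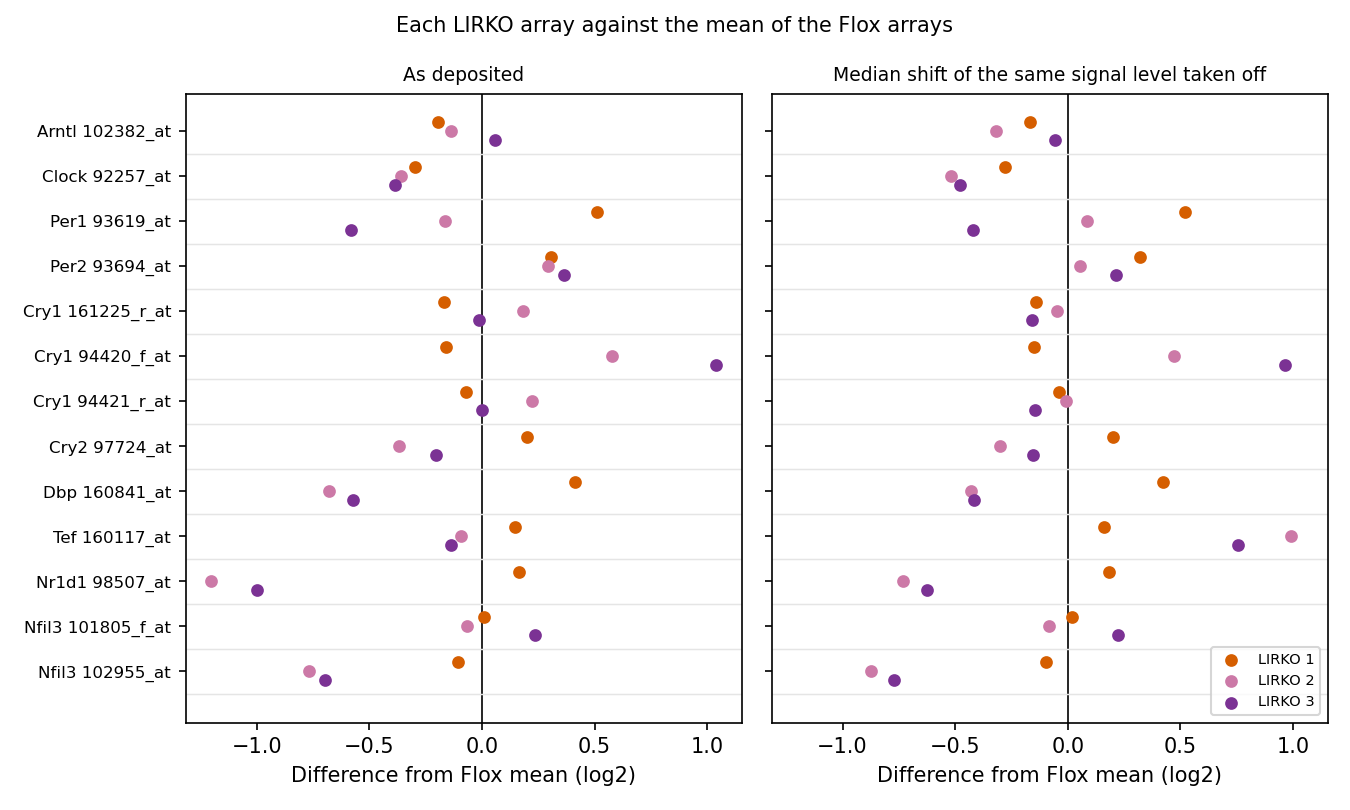
Log2 difference from the Flox mean (horizontal axis) on each LIRKO array for each clock gene probe set (rows), as deposited (left) and with the median shift of probe sets of the same level taken off (right). *Dbp* lies at 0.41 on LIRKO 1 and at -0.68 and -0.57 on LIRKO 2 and LIRKO 3 on the left, and at 0.42, -0.43 and -0.41 on the right, and *Tef* moves from -0.09 and -0.14 on LIRKO 2 and LIRKO 3 to 0.99 and 0.76.

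LIRKO 1 alone lay on both sides of Flox over the clock genes. On that array *Per1* was 0.51, *Dbp* 0.41, *Per2* 0.30, *Cry2* 0.20, *Nr1d1* 0.17 and *Tef* 0.15 above the Flox mean. *Clock* was -0.30, *Arntl* -0.19 and *Nfil3* (102955_at) -0.11 from it. LIRKO 1 was above all 3 Flox arrays at 5 of the 13 probe sets (*Per1*, *Per2*, *Cry2*, *Dbp* and *Tef*), against 24.7% of all probe sets, and below all 3 at 5 (*Arntl*, *Clock* and the 3 of *Cry1*), against 30.9% of all. This is 1 pool, with no spread of its own, so that no test of LIRKO 1 alone is given. Without LIRKO 1, in contrast, limma called 4 of the 13 lower, against 26.7% of all probe sets, and 1 higher, against 22.4% of all. Those lower were *Nr1d1* at -1.10 (adjusted p = 0.000209), *Dbp* at -0.63 (adjusted p = 0.00144), *Nfil3* on 102955_at at -0.73 (adjusted p = 0.00221) and *Clock* at -0.37 (adjusted p = 0.0173), and the one higher was *Cry1* on 94420_f_at at 0.81 (adjusted p = 0.00166). *Clock* was the only gene of these with LIRKO 1 outside the Flox range on the same side as LIRKO 2 and LIRKO 3. The fit without LIRKO 1 rests on LIRKO 2 and LIRKO 3, which share the shift with signal level, and the shift was not taken off. Probe sets of the level of *Nr1d1* ran -0.47 and -0.38 from Flox on these arrays, and those of the level of *Dbp* -0.25 and -0.16. At the levels of *Clock*, *Nfil3* (102955_at) and *Cry1* (94420_f_at) the shift ran above Flox.

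The clock genes also differed in their spread within a group. Over the 13 probe sets the median SD was 0.176 in LIRKO and 0.102 in Flox, against 0.255 and 0.101 over all probe sets. In Flox livers the SDs ran from 0.0333 for *Cry2* to 0.215 for *Nfil3* (102955_at), with 7 of 13 above the Flox median. *Nfil3* (102955_at), *Per1* and *Nr1d1* lay at percentiles 90.8, 88.9 and 87.4 of all Flox SDs, and *Dbp* at 29.2. The other probe set of *Nfil3*, 101805_f_at, lay at 11.3. In LIRKO livers 6 of 13 SDs were above the LIRKO median. *Nr1d1*, *Cry1* (94420_f_at), *Dbp* and *Per1* had LIRKO SDs of 0.738, 0.605, 0.602 and 0.550, while *Per2* and *Clock* had 0.0387 and 0.0473. The LIRKO SDs take in the distance of LIRKO 1 from LIRKO 2 and LIRKO 3, the arrays that share the shift with signal level. *Nr1d1* read 9.05 on LIRKO 1 against 7.68 and 7.88, and *Dbp* 8.14 against 7.05 and 7.16. The part of the shift in these SDs was not tested. The SD was larger in LIRKO at 11 of the 13, where it was larger in LIRKO at 84.8% of all probe sets, and *Clock* and *Per2* were the exceptions.

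**Figure D3:**
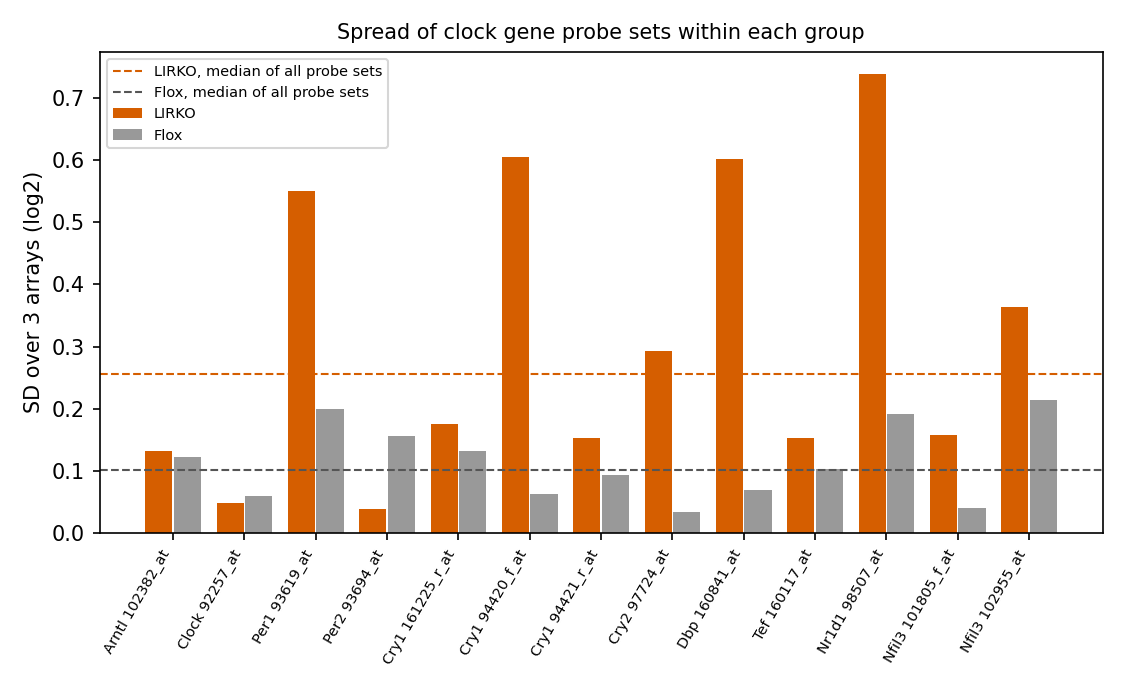
Standard deviation over the 3 arrays of a group (log2, vertical axis) for each clock gene probe set, LIRKO in orange and Flox in grey; dashed lines are the medians of all probe sets, 0.255 in LIRKO and 0.101 in Flox. The LIRKO bars of *Nr1d1* (0.738), *Cry1* 94420_f_at (0.605), *Dbp* (0.602), *Per1* (0.550), *Nfil3* 102955_at (0.363) and *Cry2* (0.293) stand above their line. Those of *Clock* and *Per2* are below the Flox bars.

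Of 14 other clock genes, 9 were read by a probe set of their own, each by its brightest, and 0 passed in either direction. At an unadjusted p under 0.05 limma had 2 of the 9, where it had 20.9% of all probe sets. Their median log2 difference was 0.21, against 0.01 over all probe sets. *Bhlhe40*, an E-box gene whose protein represses the BMAL1 and CLOCK pair, read 9.0, 7.33 and 7.44 in LIRKO and 8.97, 8.81 and 8.86 in Flox. LIRKO 1 was thus above all Flox arrays and the other LIRKO arrays below them, as for *Dbp*, with a log2 difference of -0.96 (adjusted p = 0.245 from limma) and 0.14, -1.08 and -1.06 on LIRKO 1 to LIRKO 3 once the shift of the same level was taken off. *Btrc*, which encodes a subunit of a ubiquitin ligase for PER proteins, had LIRKO arrays below all Flox arrays, at -0.44 (adjusted p = 0.237 from limma). *Timeless* had them above, at 0.46 (adjusted p = 0.237 from limma), and the kinase gene *Csnk1d* had them below, at -0.42 (adjusted p = 0.248 from limma). With the same-level shift taken off, *Csnk1d* was -0.03, 0.31 and 0.45 from the Flox mean on LIRKO 1 to LIRKO 3. It lies at percentile 90.1 on Flox, at the lower edge of the brightest group. That group shifted by -1.09 and -0.89 on LIRKO 2 and LIRKO 3, and the next group down by -0.47 and -0.38. The sign of *Csnk1d* on those arrays thus rests on the group it is put in, and no direction can be given for it. *Btrc* was below and *Timeless* above the Flox mean on all 3 LIRKO arrays with the shift taken off. The non-overlap of 1 gene above and 2 below is to be read against 9.84% and 14.9% of all probe sets.

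Of 14 liver genes whose rhythm depends on the clock, 11 were measured, and 0 passed on the brightest probe set, with 3 of 11 at an unadjusted p under 0.05, against 20.9% of all probe sets. Their median log2 difference was -0.05. As deposited, the medians on LIRKO 1 to LIRKO 3 were 0.42, -0.26 and -0.15, with 9, 4 and 3 of 11 genes above the Flox mean. Once the same-level shift was taken off the medians were 0.43, 0.53 and 0.22, with 9 of 11 genes above the Flox mean on each. The higher counts on LIRKO 2 and LIRKO 3 thus rest on taking off the shift. *Rgs16*, a regulator of G-protein signalling, read 10.84, 9.98 and 9.71 in LIRKO and 8.26, 8.86 and 7.83 in Flox on that probe set (log2 difference 1.86, adjusted p = 0.237 from limma). Its other probe set, 161609_at, passed as higher, at 2.75 (standard error 0.23, adjusted p = 0.0257 from limma). The list was chosen with earlier results of these data known, so that the call of *Rgs16* is no test of the list. *Wee1*, a cell cycle kinase gene with E-boxes, read 5.73, 5.91 and 6.31 in LIRKO and 4.82, 5.12 and 5.44 in Flox, a log2 difference of 0.86 with no overlap (adjusted p = 0.237 from limma). *Usp2*, a ubiquitin protease gene driven by the clock, read 9.15, 9.05 and 8.82 in LIRKO and 8.69, 8.80 and 8.70 in Flox, at 0.27 (adjusted p = 0.253 from limma). *Elovl3*, a fatty acid elongase gene repressed by REV-ERB alpha, read 5.43, 5.62 and 5.44 in LIRKO and 6.24, 6.09 and 5.86 in Flox, at -0.57 (adjusted p = 0.237 from limma). For *Rgs16*, *Wee1* and *Usp2* all 3 LIRKO arrays lay above all Flox arrays and for *Elovl3* below them, that is 3 and 1 of 11 genes, against 9.84% and 14.9% of all probe sets. The same-level shift left the sign of these 4 genes as it was on each LIRKO array.

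All 9 genes whose liver rhythm follows signals from the body, such as temperature and glucocorticoids, were measured, and 0 passed, with 2 of 9 at an unadjusted p under 0.05, against 20.9% of all probe sets, and a median log2 difference of 0.35. The smallest p belonged to *Hspa1a*, a heat shock protein gene, at 0.45, the glucocorticoid-induced kinase gene *Sgk1*, at 0.71 (both adjusted p = 0.237 from limma), *Fkbp5*, at 0.44 (adjusted p = 0.260), and *Hspa1b*, at 0.63 (adjusted p = 0.395). On LIRKO 1 all 9 were above the Flox mean, with a median of 0.86, and 5 of 9 were on each of LIRKO 2 and LIRKO 3. A Flox pool did likewise, since each of these genes read higher on Flox 1 than on Flox 2 and Flox 3. *Hspa1b*, for example, read 9.36 on Flox 1 against 8.69 and 7.66. Reading above the Flox mean throughout the list is therefore not particular to a LIRKO array. With the same-level shift taken off, 9, 8 and 7 of the 9 were above the Flox mean on LIRKO 1 to LIRKO 3, with medians of 0.86, 0.43 and 0.30. Macrophage markers were also above the Flox mean on LIRKO 1, at 8 of 8 measured with a median of 0.38, and at 1 and 3 of 8 on LIRKO 2 and LIRKO 3 (1 and 4 once the shift was taken off). Each of these markers was above the Flox mean on Flox 2 too, with *C1qa* at 9.14 there against a Flox mean of 8.78. Their summed level ran from 56.5 to 64.9 over the LIRKO arrays and from 58.3 to 64.0 over the Flox arrays, 0 of the 8 passed, and their part in the clock values was not tested. Of the other marker lists, hepatocyte genes had a median of 0.09 on LIRKO 1 and -0.90 and -0.95 on LIRKO 2 and LIRKO 3, which became 0.10, 0.19 and -0.05 once the shift of the brightest probe sets was taken off, and no gene of any marker list passed. In bulk liver RNA, fewer cells of a type and less RNA per cell cannot be told apart.

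**Figure D4:**
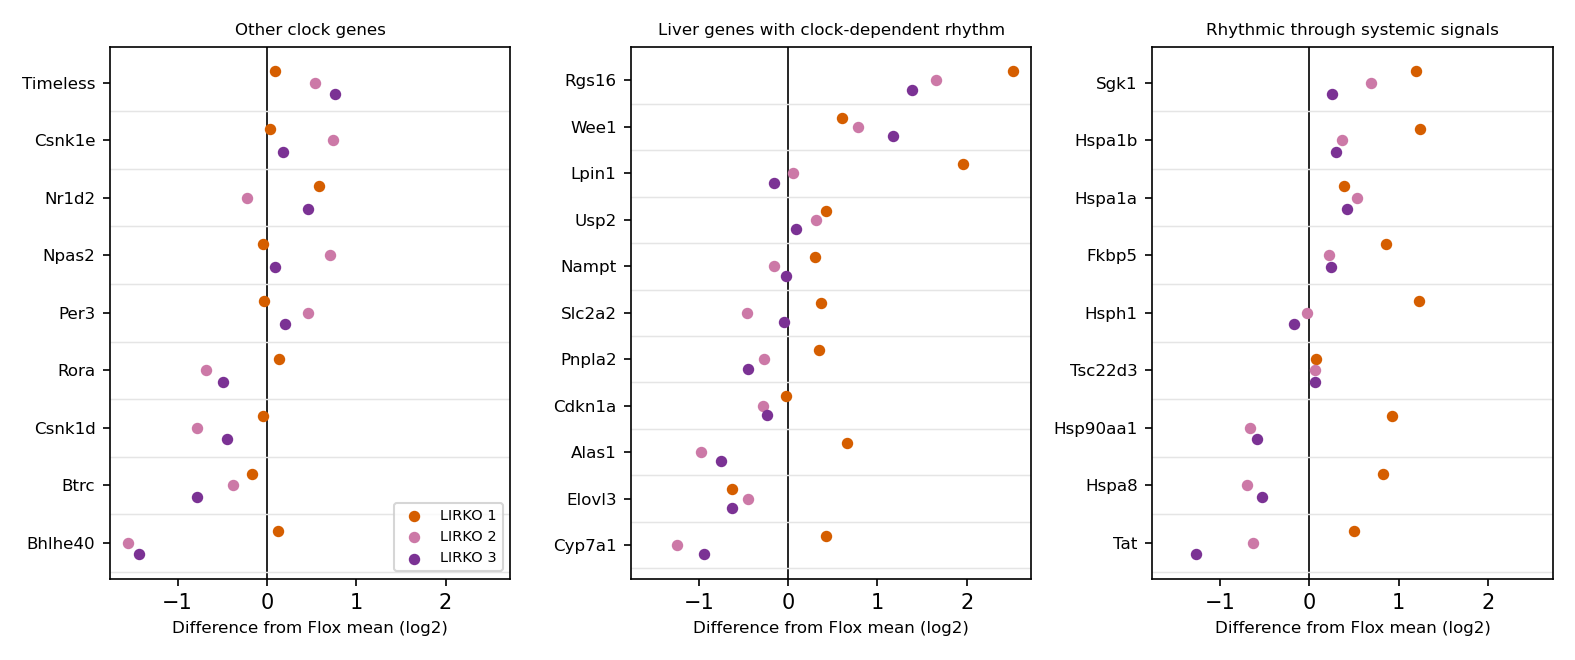
Log2 difference from the Flox mean (horizontal axis) on each LIRKO array for genes of 3 lists (rows), each read by its brightest probe set: other clock genes (left), liver genes with clock-dependent rhythm (middle) and genes rhythmic through systemic signals (right). *Rgs16* and *Wee1* lie right of 0 and *Elovl3* left of 0 on all 3 arrays, and on LIRKO 1 all 9 genes of the right panel lie above 0, with a median of 0.86. Flox 1, which is not drawn, also read above the Flox mean for each gene of the right panel.

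As a description of likeness, *Arntl* and *Dbp* were set against 8250 other genes over the 6 arrays. The genes nearest to *Dbp* were *Sult1a1*, *Dnajc13* and *Eci2* (Pearson r of 0.997, 0.996 and 0.995), which all read highest on LIRKO 1 and lower on LIRKO 2 and LIRKO 3 than on any Flox array. *Sult1a1*, a sulfotransferase gene, read 9.30, 7.79 and 7.99 in LIRKO and 8.58, 8.67 and 8.75 in Flox. Those nearest to *Arntl* were *Aurka*, *Trh* and BC147527 (r of 0.960, 0.957 and 0.950). The 6 arrays include LIRKO 2 and LIRKO 3, which share the shift with signal level.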

How the data were processed

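Liver RNA of LIRKO and Flox mice was hybridized to 6 arrays, 3 a group. From the raw images the authors derived log2 levels by RMA (R packages affy and limma), and each deposited value stands for a probe set on an array. Versions, and whether all arrays were normalized together, are not given in the sources used here. These values were taken as deposited. Of 12488 probe sets, 66 array controls were left out and 12422 were fitted without a filter, with limma 3.58.1 (lmFit, eBayes) in R 4.3.3 and Benjamini-Hochberg adjustment over all, as in the methods, with a threshold of 0.05. Groups came from the submitters' labels. Gene symbols are those of the platform annotation (10833 probe sets with 1 symbol, 396 with several, 1193 with none), and list genes were read by their brightest probe set. No counts exist, so no counting interval was computed.

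The members and lists were chosen with earlier results of these data known. Named were all members, the list genes past the threshold and up to 4 per list with the smallest p, and the 3 genes most like *Arntl* and *Dbp*. Alternatives were 3 normalizations, a filter on the dimmest 25%, weights for arrays, limma's trend with robust variances, a block for replicate number, averaging the probe sets of a gene, the methods' t-test, Bonferroni adjustment, and leaving out single arrays or LIRKO 2 with LIRKO 3. Taking off the median shift of probe sets of the same level, in 10 groups by mean Flox level, was added after seeing the data. The fit was tested on simulated data with known changes. Tables were made with pandas 2.3.3 in Python 3.11.15, and plots with matplotlib 3.10.9.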

Additional observations from a re-analysis of the deposited data

Results flagged for a closer look

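Array control probe sets that read the antisense strand lie outside the comparison of genes. On LIRKO 2 and LIRKO 3 the median of 15 such probe sets was 1.17 and 1.44 above Flox on the log2 scale, with 15 of 15 above all Flox arrays on both, whereas it was 0.00 on LIRKO 1 and -0.18 to 0.12 on the Flox arrays. These are the 2 arrays on which *Dbp*, *Cry2* and *Nr1d1* read below Flox, and the part of this signal in those values was not tested.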

How the results depend on the processing

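The count of clock probe sets past the threshold, 0, became 9 with array weights (an estimate without convergence) and ran from 0 to 5 with 1 array left out (5 without LIRKO 1). The count over all 12422 probe sets, 16, became 40 after cyclic loess, 43 with the same-level shift taken off, 8694 with array weights, 2 with Bonferroni adjustment, 0 with the methods' t-test (728 at an unadjusted p under 0.05, of which 1 was a clock probe set) and 90 with LIRKO 2 and LIRKO 3 left out, and ran from 2 to 6095 with 1 array left out. With those 2 arrays left out the median over the clock probe sets was 0.0096, against -0.078. With 1 array left out it ran from -0.115 to -0.016. When probe sets of a gene were averaged, 1 of the 29 list genes passed, *Rgs16*, against 0.

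Signs turned as follows, in no case with an adjusted p under 0.05 where a fit kept more than 1 array per group. With LIRKO 2 and LIRKO 3 left out, the log2 difference was 0.51 for *Per1*, 0.41 for *Dbp*, 0.20 for *Cry2*, 0.17 for *Nr1d1*, 0.15 for *Tef*, and -0.16, -0.17 and -0.070 for *Cry1* on 94420_f_at, 161225_r_at and 94421_r_at. *Per1* was 0.029 after quantile normalization, 0.060 after cyclic loess and 0.065 with the same-level shift taken off, and *Tef* 0.49, 0.57 and 0.64. In the same order *Cry1* was -0.078, -0.12 and -0.11 on 161225_r_at and -0.042, -0.072 and -0.064 on 94421_r_at. With each array centred on its median, 161225_r_at was -0.013, and with array weights *Arntl* was 0.078. With 1 array left out, *Per1* ran from -0.37 to 0.17, *Tef* from -0.12 to 0.025, *Cry1* from -0.090 to 0.085 on 161225_r_at and from -0.034 to 0.11 on 94421_r_at, and *Nfil3* on 101805_f_at from -0.028 to 0.12. The cause of these turns was not tested.

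With the replicate number as a block, 0 clock and 11 of all probe sets passed, so that the block changed no call of a clock gene. Same-numbered LIRKO and Flox arrays had correlations of their deviations of 0.32, 0.40 and 0.09, and not every array matched its own number best, so that the arrays were taken as unpaired. Array number, the lack of a series of times, and signal near the floor for 2 of the *Cry1* probe sets limit what can be seen.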
